A study of Mus musculus with 2 samples.

Results

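Heat shock genes code for the chaperones and co-chaperones that keep proteins folded, and 10 of them are described here in γδ T cells of the mouse liver and thymus: Hspa1a, Hspa1b, Hspa8, Dnajb1, Dnaja1, Hsph1, Hsp90aa1, Hsp90ab1, Hspd1 and Hspe1. They were taken by symbol from the 27998 genes listed, and each symbol was found once. Hspa1a, Hspa1b, Dnajb1, Hsph1, Hsp90aa1 and Dnaja1 were grouped as 6 inducible members, and Hspa8, Hsp90ab1, Hspd1 and Hspe1 as 4 constitutive members. They were chosen by symbol with the difference between their hepatic and thymic UMI levels already in view, so the levels below are a description and no test is given.

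The series held 1 single-cell library of hepatic and 1 of thymic γδ T cells, both from untreated, wild type C57BL/6J mice at 8 weeks of age. Cells were sorted as CD3e+ TCRγ/δ+, and only the thymic suspension was first depleted of CD4+ and CD8+ cells on magnetic beads. The cells came from a pool of mice that the study counts for both tissues together, and how the mice were divided between the libraries is not given in the sources used here. With 1 library per tissue, the tissue, the bead step, the preparation and the library cannot be told apart, and every interval below is a 95% interval that covers counting error alone. For levels and ratios it leaves out the spread between cells.

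Most inducible heat shock genes are silent or low in resting cells and are switched on by the transcription factor HSF1 when proteins unfold, after heat, oxidative stress or rough handling. Constitutive members serve the same folding cycle in unstressed cells: Hspa8 is the resting HSP70 of the cytosol, Hsp90ab1 the resting HSP90, and Hspd1 with Hspe1 the chaperonin of the mitochondrion. In T cells these chaperones also hold kinases and receptors of signalling pathways in a usable fold, and their levels go up with growth and division.

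HSF1 binds repeats of the 5 bases NGAAN in alternating orientation, and the sequences upstream of Hspa1a and Hspa1b, the pair with the widest tissue difference, are shown for this reason. Hspa1a (ENSMUSG00000091971) lies at chr17:34969190-34972156 and Hspa1b (ENSMUSG00000090877) at chr17:34956436-34959238 in GRCm38, both on the minus strand and 9951 bases apart. The 250 bases before each start, 5′ to 3′ from RefSeq on GRCm38.p6, are given below, with a pair of facing repeat units in capitals. They cover chr17:34972157-34972406 for Hspa1a and chr17:34959239-34959488 for Hspa1b.
Hspa1a: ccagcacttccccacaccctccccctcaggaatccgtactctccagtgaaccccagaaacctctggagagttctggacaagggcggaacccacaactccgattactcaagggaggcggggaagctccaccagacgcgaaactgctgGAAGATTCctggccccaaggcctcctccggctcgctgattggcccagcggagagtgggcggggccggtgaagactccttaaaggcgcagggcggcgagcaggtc
Hspa1b: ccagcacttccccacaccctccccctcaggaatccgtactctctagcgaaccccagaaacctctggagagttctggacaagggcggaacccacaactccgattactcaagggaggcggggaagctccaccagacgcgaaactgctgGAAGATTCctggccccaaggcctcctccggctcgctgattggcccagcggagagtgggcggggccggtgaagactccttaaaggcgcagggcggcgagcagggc

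The upstream stretches differed at 3 of 250 bases, and both held the facing units 104 bases before the start. The transcripts are close copies too: 49.3% of all 90-base stretches of Hspa1a were found whole in Hspa1b. In the last 500 bases, where 3′ reads collect, the share was 0, so reads there can be assigned to one gene or the other, while part of the reads further inside the transcript could come from both. How the UMIs were split between Hspa1a and Hspa1b is therefore uncertain, and their sum is given beside them.

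RefSeq held upstream windows for 7 of the 10 members, some with several, and 6 of the 7 carried GAANNTTC or TTCNNGAA in at least 1 window. Both motifs read the same on either strand and were also found in 12.8% of all 32851 windows, each of 250 bases, with the windows of 1 chromosome not searched. The count is of genes over any of their windows and the percentage is of single windows, so they are unlike measures. Dnajb1 was the member whose windows held neither. Hspd1 and Hspe1 are read in opposite directions from a shared region, and there alone among the members stood 4 units in a row. At least 3 units, GAANNTTCNNGAA or its reverse TTCNNGAANNTTC, were present in 0.466% of all windows. The stretches around these letters, each of 30 bases in the direction of the named gene, are shown for Dnaja1 at chr4:40722333-40722362, Hsph1 at chr5:149636351-149636380 and Hspe1 at chr1:55088053-55088082. The other members lie at chr9:40800984-40810087 (Hspa8), chr8:83608193-83612653 (Dnajb1), chr4:40722150-40737149 (Dnaja1), chr5:149614287-149636376 (Hsph1), chr12:110690605-110702728 (Hsp90aa1), chr17:45567775-45573271 (Hsp90ab1), chr1:55077835-55088243 (Hspd1) and chr1:55088132-55091307 (Hspe1). A match of letters is a description of the window and not a site of binding.
Dnaja1: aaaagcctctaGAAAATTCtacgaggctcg
Hsph1: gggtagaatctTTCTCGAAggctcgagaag
Hspe1: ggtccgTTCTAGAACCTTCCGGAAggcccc

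Of 8658 hepatic and 4541 thymic barcodes, 8075 and 4351 cells remained, with a median of 2741 and 3271 UMIs and a total of 24168037 and 17064752 UMIs. The study's methods state fewer cells for either tissue than these limits leave. The libraries shared 60 barcodes. T cell markers (Cd3e, Cd3d, Cd3g, Cd247 and Lat) summed to 4350 UMIs per 1000000 UMIs (CPM) in the liver and 4223 CPM in the thymus, and Cd3e was seen in 88.6% and 87.5% of cells. The 18 immediate-early genes listed for comparison were higher in the liver, 22917 against 4913 CPM, myeloid markers were higher there, 812 against 115 CPM, and ribosomal-protein UMIs were fewer, at a median of 24.6% against 32.3%. The part of these in the differences below was not tested unless a value is given.

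In all cells, the inducible members were higher in the liver and the constitutive members less so. Summed over the library, the 6 inducible members reached 5177 CPM in the liver and 868 CPM in the thymus, a ratio of 5.96 (5.86 to 6.07). The 4 constitutive members reached 5766 and 3741 CPM, a ratio of 1.54 (1.53 to 1.56). The inducible members thus stood at 0.898 UMIs for each constitutive UMI in hepatic cells and at 0.232 in thymic cells. Per member, 6 of 10 were at least 2-fold higher in the liver and 0 were 2-fold lower. Of 10869 genes with at least 50 UMIs over both libraries, 12.1% were at least 2-fold higher and 16.9% at least 2-fold lower. The count was used in choosing the genes and is not evidence about them. The median log2 ratio was 3.04 over the inducible and 0.41 over the constitutive members, and −0.22 over all genes tested.

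**Figure D1:**
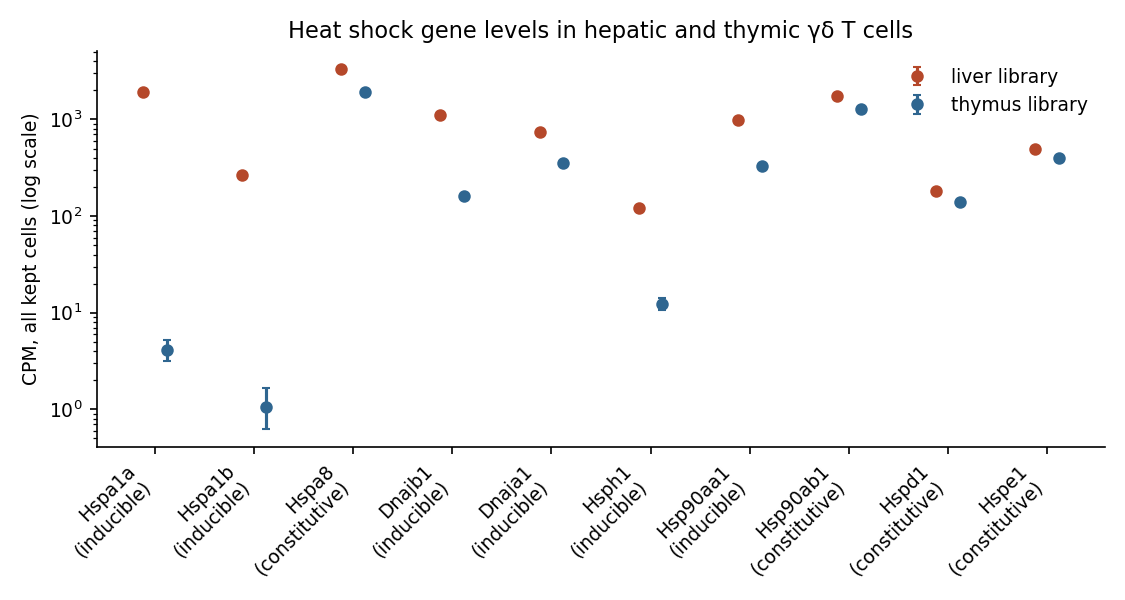
Level of each heat shock gene over all kept cells of the liver and thymus library, in CPM on a log axis, with exact Poisson 95% intervals (counting error only). Hspa1a stood at 1942 CPM in the liver and 4.10 CPM in the thymus, while the liver and thymus points of each of the 4 constitutive members lie close to each other.

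Among the HSP70 proteins, which bind unfolded stretches of a protein and release them after ATP exchange, the stress-induced Hspa1a and Hspa1b were nearly absent from the thymus. Hspa1a had 46937 UMIs in hepatic cells (1942 CPM) and 70 UMIs in thymic cells (4.10 CPM), a ratio of 473 (375 to 607). Hspa1b had 6498 and 18 UMIs, or 269 and 1.05 CPM, a ratio of 255 (161 to 430). Hspa1a gave 87.8% of the UMIs of the pair in the liver and 79.5% in the thymus, where the interval of 69.6% to 87.4% ends just under the hepatic share. Hspa8, the resting HSP70, stood at 3324 CPM in the liver and 1907 CPM in the thymus, a ratio of 1.74 (1.72 to 1.77), and was the highest member in either library. UMIs count 3′ ends, so these levels were not divided by length.

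The J proteins hand substrates to HSP70, and HSP110 exchanges its nucleotide. Dnajb1, the J protein induced by heat, stood at 1121 CPM in the liver and 162 CPM in the thymus, a ratio of 6.90 (6.63 to 7.17). Hsph1, the HSP110, was the scarcest member in the liver, at 122 CPM, against 12.4 CPM in the thymus, a ratio of 9.85 (8.56 to 11.4). Dnaja1, a J protein that resting cells also make, differed least among the inducible members, at 745 and 355 CPM and a ratio of 2.10 (2.04 to 2.16).

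HSP90 takes clients such as kinases and steroid receptors from HSP70. The inducible form Hsp90aa1 stood at 979 CPM in the liver and 334 CPM in the thymus, a ratio of 2.93 (2.85 to 3.02). The constitutive form Hsp90ab1 stood at 1763 and 1295 CPM, a ratio of 1.36 (1.34 to 1.38). The balance of the 2 forms moved with this: 0.555 Hsp90aa1 UMIs per Hsp90ab1 UMI in the liver and 0.258 in the thymus. In the mitochondrion, Hspd1 forms the folding chamber and Hspe1 its lid. Hspd1 stood at 180.1 and 138 CPM, a ratio of 1.30 (1.24 to 1.37), and Hspe1 at 499 and 401 CPM, a ratio of 1.25 (1.21 to 1.28), which placed them at the low end of the 10 members.

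Cells were clustered without the members and related lists, and 12 clusters were named from markers, as X-like where they resembled a known cell type. In the liver these were NK-like (2864 cells), Socs2 Cd28 (2759), precursor-like (1023), type 17-like (792), terminal effector-like (282), transitional-like (108), myeloid-like (105), interferon (75) and cycling (50) cells. In the thymus they were immature thymic-like cells led by Tnfsf11 (1396) or by Tox2 (1022), transitional-like (1028), cycling (534), precursor-like (186) and type 17-like (165) cells. This gave 15 groups of at least 20 cells. B cell-like cells, 14 and 4, were too few for a level. Hspa1a and Hspa1b were among the 10 leading genes of the Socs2 Cd28 cluster although neither was used to build it. Leading genes were ranked against all other cells of both libraries, thymic cells included, so they are not markers among hepatic classes alone. The place of the pair among them depended on the clustering. At resolution 0.8 both were among the leading 10 of an NK-like cluster of 1242 cells, and only Hspa1a remained in that of Socs2 Cd28. With the liver clustered alone, both were in the leading 10 of an NK-like cluster of 1484 cells and neither in that of Socs2 Cd28. The transitional-like cluster had 3 hemoglobin genes among its leading 10, beside Cd200, S1pr1 and Ccr7. Erythroid markers, such as these hemoglobin genes, summed to 296 CPM in its thymic and 3.29 CPM in its hepatic cells.

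Every one of the 9 hepatic groups had a higher inducible sum than any of the 6 thymic groups. The order in the liver ran from Socs2 Cd28 cells at 6748 CPM over interferon (5661), NK-like (5560), terminal effector-like (4790.1), myeloid-like (3880.1), type 17-like (3205), precursor-like (2903) and transitional-like (2174) to cycling cells at 1926 CPM. Interferon and NK-like cells did not differ beyond their intervals, nor did transitional-like and cycling cells. The thymic groups lay together, with cycling cells at 1217 CPM and the other 5 between 695 and 859 CPM. From Tnfsf11-led to type 17-like, precursor-like, transitional-like and Tox2-led cells, each overlapped its neighbour in the order.

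The constitutive sum made another order, with tissue and class intermixed. Socs2 Cd28 cells were again highest, at 6373 CPM, but cycling cells of the thymus, at 5644 CPM, lay within the hepatic range of 4685 to 6373 CPM. The 5 other thymic groups spanned 2790 to 3537 CPM. Within the liver the constitutive sum varied 1.36-fold from lowest to highest class, whereas the inducible sum varied 3.50-fold. Cycling cells of the liver show the contrast best: they had the lowest inducible sum of the liver and a constitutive sum of 6138 CPM, next to the highest.

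The balance of inducible to constitutive UMIs within a group does not depend on the total. It ran in the liver from 1.06 (1.05 to 1.07) in Socs2 Cd28 cells over 0.989 in NK-like, 0.645 in type 17-like and 0.540 in precursor-like cells to 0.314 (0.287 to 0.342) in cycling cells. In the thymus it ran from 0.308 (0.296 to 0.320) in Tnfsf11-led to 0.196 (0.189 to 0.204) in Tox2-led cells. By this measure the cycling cells of the liver were not apart from the Tnfsf11-led cells of the thymus, whose intervals overlap. The ratio of Hsp90aa1 to Hsp90ab1 behaved alike, at 0.396 (0.342 to 0.458) in cycling cells and 0.489 to 0.580 in the other hepatic groups. In the thymus it lay at 0.168 to 0.354, with type 17-like cells highest, and the interval of these, 0.297 to 0.420, overlapped that of hepatic cycling cells.

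**Figure D2:**
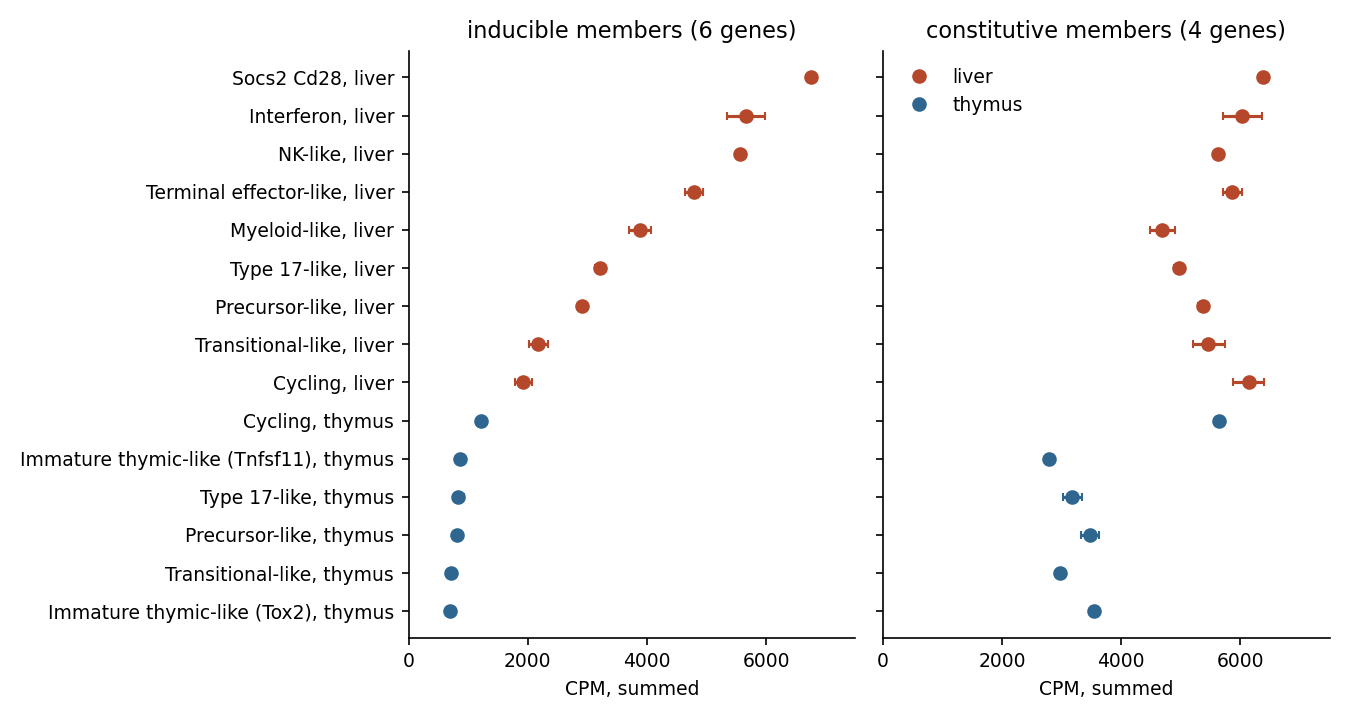
Summed CPM of the inducible members (left) and the constitutive members (right) in 15 groups of cells, ordered by the inducible sum, with exact Poisson 95% intervals. All 9 hepatic groups lie above the thymic groups on the left, and thymic cycling cells reach into the hepatic range on the right.

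Among the 10 members, Hspa1a varied most between hepatic classes. It stood at 2919 CPM in Socs2 Cd28, 2162 in interferon, 1947 in myeloid-like, 1873 in terminal effector-like, 1867 in NK-like, 1146 in type 17-like, 757 in precursor-like, 372.5 in cycling and 303 CPM in transitional-like cells, a 9.64-fold range. By counting error alone, Socs2 Cd28 cells stood apart at the top, and from interferon to NK-like cells each interval overlapped the next. Type 17-like and precursor-like cells followed as separate steps, and cycling and transitional-like cells overlapped at the bottom. The spread of Hspa1a between cells, which is wide, is not in these intervals, so these steps may be less sharp than they look. Hspa8, from the same family, varied only 1.23-fold in the liver, from 2932 CPM in myeloid-like to 3613 CPM in Socs2 Cd28 cells.

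The other inducible members did not all follow Hspa1a. Dnajb1 was highest in NK-like cells, at 1486 CPM, ahead of Socs2 Cd28 cells at 1299 CPM, and lowest in cycling cells at 229 CPM. Myeloid-like cells, at 1947 CPM among the high classes for Hspa1a, had 470.5 CPM of Dnajb1, below the 597 CPM of precursor-like cells. Hsph1 was highest in interferon cells, at 215 CPM (158 to 286), against 145 CPM (137 to 154) in Socs2 Cd28 cells. Hsp90aa1 and Dnaja1 were highest in Socs2 Cd28 cells, at 1134 and 875 CPM, and lowest in myeloid-like cells, at 708 and 422 CPM.

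Among thymic groups the members differed in where they peaked. Dnajb1 was highest in immature thymic-like cells, at 228 CPM in those led by Tnfsf11 and 189 CPM in those led by Tox2. It was lowest in type 17-like cells, at 97.1 CPM, and precursor-like cells, at 108 CPM, the 2 groups with the most Hspa1a. The intervals of both overlapped those of cycling and transitional-like cells. Hsp90aa1 was highest in cycling cells at 661 CPM, 3.34 times the 198 CPM of Tox2-led cells. Cycling cells of the thymus were also highest for Dnaja1 (409 CPM), Hsph1 (27.9), Hsp90ab1 (2245), Hspa8 (2513), Hspe1 (563) and Hspd1 (322). For Dnaja1 and Hsph1 their interval overlapped that of the next thymic group. Hspd1, at 246 CPM, and Hspe1, at 622 CPM, were highest in cycling cells of the liver as well, with intervals that overlapped the next hepatic group.

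The few thymic UMIs of Hspa1a and Hspa1b were not spread evenly. The pair had 88 UMIs in 19 of 4351 cells. Of these, 45 UMIs lay in 8 type 17-like cells, 27 in 5 precursor-like cells and 11 in 1 myeloid-like cell. The 3980 immature thymic-like, transitional-like and cycling cells held 5 UMIs, each in a cell of its own, so 0.126% of them had the pair (exact binomial interval 0.0408% to 0.293%). Among the 351 type 17-like and precursor-like cells it was 3.70% (1.99% to 6.25%), and 7 of their 13 cells held at least 3 UMIs, up to 14. Of the 19 cells, 1 had a barcode that also occurred in the liver library, and it held 1 UMI. The median depth of precursor-like and type 17-like thymic cells was 3086 and 2778 UMIs, against 7050.0 in cycling and 2938.5 in transitional-like cells.

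Of the classes, 4 had at least 20 cells in both tissues and were compared between them. Precursor-like cells had an inducible sum of 2903 CPM in the liver and 807 CPM in the thymus, a ratio of 3.60 (3.29 to 3.95). Type 17-like cells had 3205 and 834 CPM, a ratio of 3.84 (3.48 to 4.26), and transitional-like cells 2174 and 712 CPM, a ratio of 3.05 (2.80 to 3.33). In cycling cells the ratio was 1.58 (1.46 to 1.72). Each is under the 5.96 of all cells, and the 3 hepatic classes with the highest sums, Socs2 Cd28, interferon and NK-like, had no thymic group of at least 20 cells to set beside them. The constitutive ratio in the same order of classes was 1.54, 1.57, 1.84 and 1.09. The thymic side of the precursor-like class depended on the clustering. At resolution 0.8 it held 72 cells instead of 186, and an unnamed cluster of 117 thymic and 19 hepatic cells appeared. The hepatic side of the transitional-like class did so too, with 68 cells at resolution 0.4 and 43 at resolution 0.8 instead of 108. Whether the cells of any of these classes are the same cell type in the 2 tissues was not tested.

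In precursor-like cells 5 of 10 members were at least 2-fold higher in the liver, where 4.78% of 5687 genes were. The same count was 5 of 10 in type 17-like cells against 6.50% of 5229 genes, 4 of 9 in transitional-like cells against 4.45% of 6119 genes, and 2 of 9 in cycling cells against 7.19% of 6541 genes. The genes counted had at least 50 UMIs over both libraries, which Hspa1b did not reach in transitional-like cells, with 25 hepatic and 0 thymic UMIs, or in cycling cells, with 26 and 1. These shares use the contrast that chose the genes and are not evidence about them. No member was 2-fold lower in the liver in any of these classes, where 4.01%, 2.16%, 10.4% and 16.5% of genes were.

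Hspa1a and Hspa1b had the highest ratios or bounds in each of the 4 classes. Hspa1a stood at 757 against 34.5 CPM in precursor-like cells, a ratio of 21.9 (14.3 to 35.5), and at 1146 against 72.3 CPM in type 17-like cells, a ratio of 15.9 (11.4 to 22.8). Transitional-like cells had 92 hepatic UMIs against 1 thymic UMI, a ratio of 1004 with an interval from 176 to 40063. Cycling cells had 130 hepatic and 0 thymic UMIs, which was at least 502-fold higher in the liver against a floor of 3 UMIs in the thymic cells of this class. Hspa1b had ratios of 11.02 (5.01 to 30.2) in precursor-like and 8.03 (4.32 to 16.9) in type 17-like cells, whose intervals overlap those of both Hspa1a and Dnajb1. It was at least 90.9-fold higher in hepatic transitional-like cells, against 3 UMIs in the thymic cells of that class, and its ratio in cycling cells was 301 (49.5 to 12352). For Dnajb1 the ratios were 5.51 (4.31 to 7.15) in precursor-like, 5.62 (4.20 to 7.68) in type 17-like, 3.64 (2.97 to 4.43) in transitional-like and 1.93 (1.505 to 2.45) in cycling cells. The cycling class was the narrowest for Hsp90aa1 as well, at 1.13 (0.993 to 1.29), an interval that reaches 1.

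The constitutive Hsp90ab1 was higher in the liver in precursor-like (1.35), type 17-like (1.42) and transitional-like cells (1.79), but lower in cycling cells, at 1888 against 2245 CPM and a ratio of 0.841 (0.776 to 0.910). Hspd1 was lower in hepatic cycling cells too, at 246 against 322 CPM and a ratio of 0.765 (0.608 to 0.953). The hepatic cycling class held 50 cells with 348991 UMIs and cycling markers at 3000 CPM, the thymic one 534 cells with 4044087 UMIs and 3674 CPM. The part of this difference in markers was not tested. With the liver clustered alone, no class was named cycling. A cluster of 45 cells there, with Rrm2, Birc5, Gzmk and Klrg1 among its leading 10, was named terminal effector-like. Whether hepatic and thymic cycling cells are the same cell type was not tested.

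**Figure D3:**
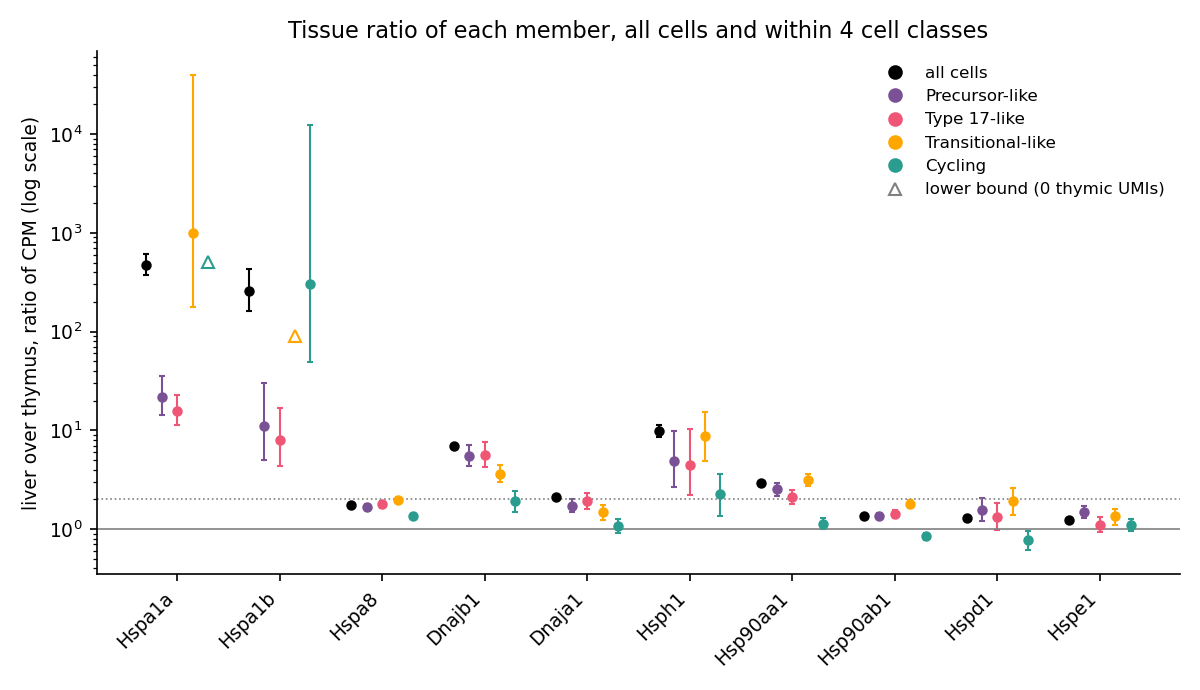
Ratio of CPM, liver over thymus, for each heat shock gene in all cells and within 4 classes held by both tissues, on a log axis, with exact conditional binomial 95% intervals. Open triangles are lower bounds where the thymic group had 0 UMIs, the solid line marks 1 and the dotted line the 2-fold limit. Over all cells Hspa1a, at 473, and Hspa1b, at 255, stand far above the other members, in precursor-like and type 17-like cells the interval of Hspa1b overlaps that of Dnajb1, and cycling cells lie lowest for 8 of the 10.

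Cells were compared at equal depth after each was thinned to 1500 UMIs, which left out 5 hepatic and 7 thymic cells. A UMI of Hspa1a was then present in 50.8% of hepatic cells (49.7% to 51.9%) and 0.253% of thymic cells (0.126% to 0.453%). Without thinning the shares were 60.3% and 0.345%. By class it ranged in the liver from 27.6% of transitional-like to 61.9% of Socs2 Cd28 and 64.8% of myeloid-like cells, at medians of 2613, 2711 and 3069 UMIs before thinning. Lyz2, a lysozyme of myeloid cells that T cells should lack, was found in 92.4% of myeloid-like and 2.65% of Socs2 Cd28 cells at the same thinned depth. Lyz2 was also less abundant in the library, at 238 CPM against 1942 CPM for Hspa1a, so it is a low gauge of what free RNA of Hspa1a could add. Hspa8 was seen in 97.3% of hepatic and 90.4% of thymic cells (99.5% and 98.0% unthinned), and Dnajb1 in 60.4% and 22.4% (76.8% and 43.6% unthinned). Between the HSP90 forms, Hsp90aa1 was seen in 68.3% and 32.2% of cells and Hsp90ab1 in 86.9% and 75.6%. The scarcer Hsph1 was seen in 15.6% and 1.29%.

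Hspa1a was unevenly shared among hepatic cells. The variance over the mean (Fano factor, 1 for random counting) of its thinned UMIs was 9.76, against 4.08 for Dnajb1, 2.20 for Hspa8, 2.06 for Hspa1b, 1.82 for both Hsp90aa1 and Hsp90ab1 and 1.11 for Hspd1. At the same relative spread this factor rises with the mean, and these members differ widely in level. It therefore does not rank them by unevenness, and Hspa1b in particular is far scarcer than Hspa1a and Hspa8. The 10% of hepatic cells with the most Hspa1a and Hspa1b held 51.6% of the UMIs of the pair, while 41.6% of cells had none. For the constitutive members, the top 10% held 21.8% and 0.310% had none. Within Socs2 Cd28 cells 19.1% held at least 10 UMIs of the pair, against 10.9% of NK-like, 5.81% of type 17-like and 1.86% of precursor-like cells, so high and empty cells stood side by side in each class. In the thymus, Dnajb1 had a Fano factor of 1.04 and Hspa8 of 1.30, both at a lower level than in the liver.

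**Figure D4:**
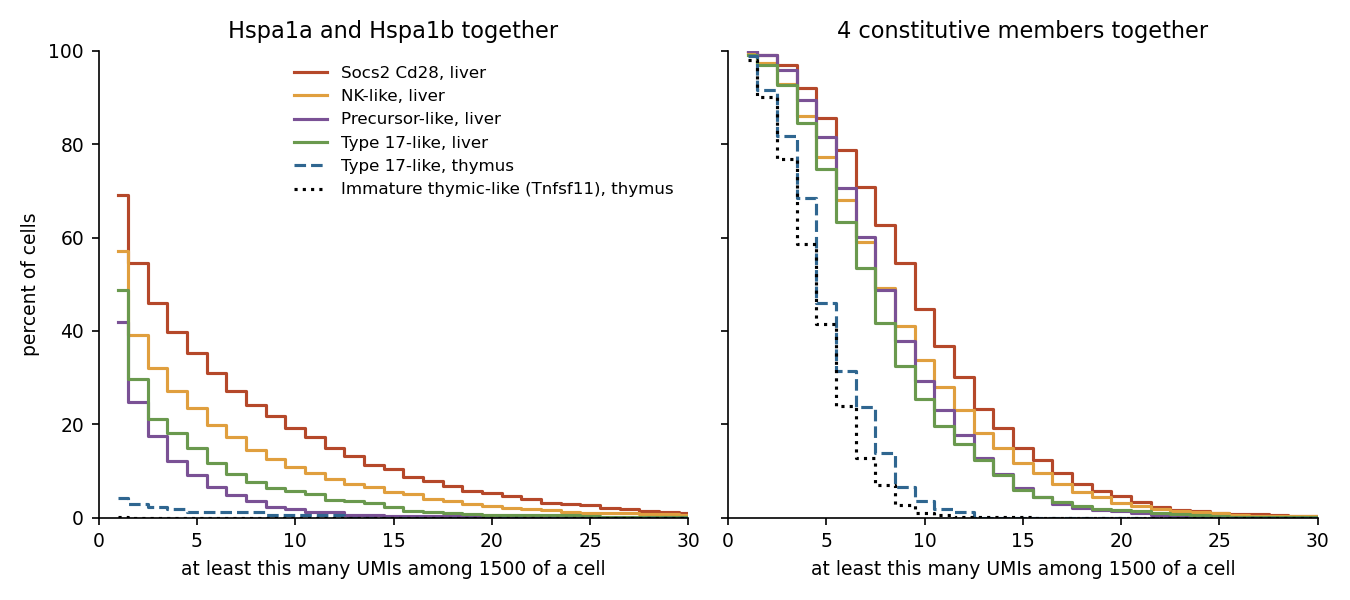
Percent of cells with at least a given number of UMIs of Hspa1a and Hspa1b together (left) and of the 4 constitutive members together (right), after thinning each cell to 1500 UMIs, in 6 groups. On the left hepatic classes fall off slowly from 69.0% of Socs2 Cd28 cells and thymic type 17-like cells start at 4.24%, while on the right every group starts at 98.1% or above.

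Cells with Hspa1a held Hspa1b, Dnajb1 and Hsph1 more often in the largest hepatic classes. Among Socs2 Cd28 cells at 1500 UMIs, Hspa1b was found in 42.1% (39.7% to 44.4%) of the 1707 cells with Hspa1a and in 18.8% (16.5% to 21.3%) of the 1052 without. Dnajb1 was found in 72.9% against 55.5%, Hsph1 in 21.4% against 13.1% and the constitutive Hspd1 in 26.3% (24.2% to 28.5%) against 20.9% (18.5% to 23.5%). NK-like cells showed the same order, with Hspa1b in 36.8% against 17.5% and Dnajb1 in 75.6% against 55.7%. Terminal effector-like cells did not for Dnajb1, at 54.2% against 54.0%, nor did the 105 myeloid-like cells for Hsph1, at 5.88% (1.63% to 14.4%) against 10.8% (3.03% to 25.4%). Correlations over the 8070 hepatic cells were weak. Pearson r was 0.102 to 0.357 for the 15 inducible and 0.0768 to 0.256 for the 6 constitutive pairs. For the 24 mixed pairs, of an inducible and a constitutive member, it was 0.0425 to 0.275. Within classes, inducible pairs were not always set apart. The median r of inducible, mixed and constitutive pairs was 0.171, 0.153 and 0.154 in NK-like cells. In terminal effector-like cells it was 0.135, 0.142 and 0.124, and in Socs2 Cd28 cells 0.157, 0.121 and 0.115. Inducible pairs had the highest median in type 17-like cells too, at 0.142.

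A list of other HSF1 targets and cytosolic partners of the chaperones differed less than the inducible members. Those members were chosen with their difference in view, so this contrast is not evidence about HSF1 targets. Of 33 such genes with at least 50 UMIs, 10 were at least 2-fold higher in the liver and 0 lower, beside the 12.1% and 16.9% of all genes, and their median log2 ratio was 0.49. The largest ratios were those of Hspb1, a small heat shock protein, at 9.10 against 0.352 CPM, and Dnaja4, a J protein, at 40.2 against 3.28 CPM. The smallest were those of Hspa4l, of the HSP110 family, at 11.5 against 21.7 CPM, and the HSP70 cofactor St13, at 156 against 248 CPM. Within precursor-like cells 4 of 28 were 2-fold higher and 1 lower, where 4.78% and 4.01% of all genes were. In type 17-like cells it was 3 of 27 and 0, beside 6.50% and 2.16% of all genes, and in transitional-like cells 4 of 26 and 1, beside 4.45% and 10.4%. In cycling cells 0 of 27 were 2-fold different either way, beside 7.19% and 16.5%.

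Immediate-early genes, transcription factors and phosphatases that come on within minutes of a signal or of handling, were higher in the liver too. Of 18, 13 were at least 2-fold higher and 1 lower, where 12.1% and 16.9% of all genes were. Jun had the largest ratio, at 2272 against 76.9 CPM, and Egr2 the smallest, at 3.23 against 7.68 CPM. Over the classes their sum did not keep the order of the inducible heat shock genes. Type 17-like hepatic cells had the highest immediate-early sum, 28156 CPM, but only 3205 CPM of the inducible members, below 5 other hepatic classes. Terminal effector-like cells had 12925 CPM, less than any other hepatic class but cycling, and an inducible sum below only those of Socs2 Cd28, interferon and NK-like cells. Socs2 Cd28 cells had 25026, NK-like 23472 and precursor-like 17019 CPM. In the thymus type 17-like cells had 11171 and precursor-like cells 9584 CPM. Both lay between hepatic cycling cells, at 8069 CPM, and hepatic terminal effector-like cells. The inducible sum was 834 and 807 CPM in these thymic groups, 1926 CPM in hepatic cycling and 4790.1 CPM in hepatic terminal effector-like cells. The part of immediate-early genes in the tissue difference was not tested.

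**Figure D5:**
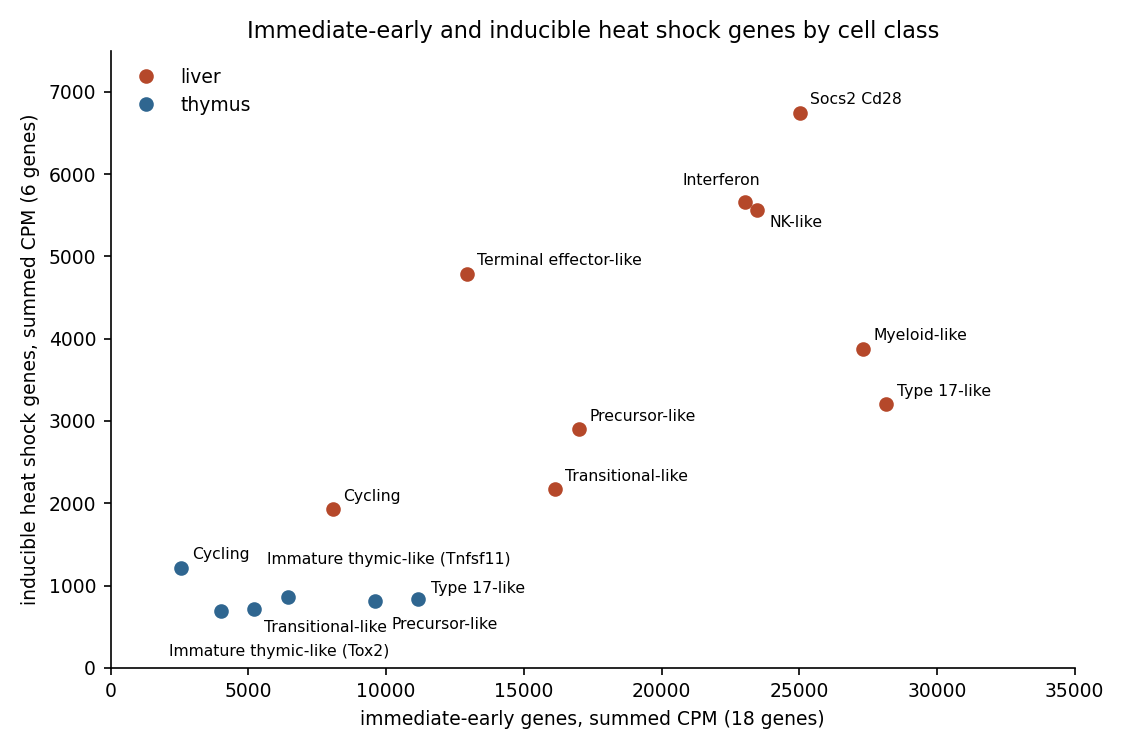
Summed CPM of 18 immediate-early genes against summed CPM of the 6 inducible heat shock genes in 15 groups of cells, liver and thymus in separate colours. Thymic groups stay at or below 1217 CPM on the vertical axis over immediate-early sums of 2567 to 11171 CPM, and hepatic type 17-like cells lie furthest to the right.

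Over the 15 groups, the genes whose log2 level ran closest to the inducible sum, of 4508 genes ranked, were Txnip (Pearson r = 0.94), a regulator of thioredoxin, Gcnt2 (0.93), 1810011H11Rik (0.93), Lrrk1 (0.91) and Btg2 (0.91), an antiproliferative immediate-early gene. For the constitutive sum they were Ahsa1 (0.92), which activates the ATPase of HSP90, Hn1 (0.89), Cacybp (0.89), Pfdn6 (0.88), a subunit of prefoldin, and Stip1 (0.86), which joins HSP70 to HSP90. These are descriptions over groups that come from 2 libraries and share depth and tissue within each.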

How the data were processed

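Single-cell RNA of 1 hepatic and 1 thymic library was measured with droplet-based 3′ chemistry. The authors deposited raw UMI counts per gene and barcode, without normalization. Per the submitters' processing notes, Cell Ranger, Seurat 3.0 and mm10 were used. The study's methods name a later Seurat release, and the Cell Ranger version and gene annotation are not given in the sources used here. The thymic count file ended in 2 stray text lines, which were not read.

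Cells with 800 to 4000 genes and at most 6% mitochondrial UMIs were kept. UMIs were summed over cells and scaled to 1000000 (CPM), with exact Poisson, conditional binomial or Clopper-Pearson 95% intervals. UMI counts without replicate libraries allow no test between tissues, so none was run. Seurat 5.3.0 (R 4.3.3) grouped the cells of both libraries in a single run (LogNormalize, 2000 variable genes of which 1951 remained without the members and lists, 30 principal components, Louvain resolution 0.6). For naming, each marker list was scored in a cluster by its average log2 ratio to the remaining clusters, with 10 CPM added, and the best list gave the name if it scored at least 0.5 and no other list had more genes among the 10 leading ones. The clusters were known when this rule was written. Shares of cells were taken after thinning to 1500 UMIs (seed 11). Scrublet in scanpy 1.11.5 marked 4 hepatic and 2 thymic cells, too few for a working call, and no cell was removed as a doublet in the values given. Taking out the cells with the 600.0 and 165 highest scores was an alternative. Ratios and thinning were tested on simulated data. Python 3.11.15, numpy 2.4.6, scipy 1.17.1, pandas 2.3.3 and matplotlib 3.10.9 were used.

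The members, the other gene lists and the marker lists were chosen with earlier results of these data known. Named genes are the 10 members and, for each list, up to 2 genes with the largest ratios in either direction. The 5 genes most like each sum in log2(CPM + 10), among genes with at least 50 CPM in a group, are named too. Jun, Cd3e and Lyz2 serve as examples of lists. Gene positions come from GENCODE M21 on GRCm38, the build that mm10 names. Upstream sequences come from RefSeq; Hspa8, Hsp90aa1 and Hsp90ab1 had no entry. Alternatives changed the filters on cells, the thinning, the total, the weighting of cells, the grouping of Dnaja1, the fold limit and the clustering.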

Additional observations from a re-analysis of the deposited data

Results flagged for a closer look

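Hsp90ab1 and Hspd1 stood out because cycling cells went the opposite way from the other classes. The ratio of liver over thymus was 0.841 for Hsp90ab1 in cycling cells, against 1.35 to 1.79 in the 3 other classes, and 0.765 for Hspd1, against 1.57 and 1.91 in precursor-like and transitional-like cells. The difference between classes was not tested, nor whether the cycling cells of the 2 tissues are the same cell type. A signal was also present in barcodes that the limits on cells leave out. The 583 hepatic barcodes left out held Hspa1a and Hspa1b at 1675 CPM (1590.1 to 1763), above the 3.44 CPM that 3 UMIs would give. The 190.0 thymic barcodes left out held 0 UMIs of the pair.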

How the results depend on the processing

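No replicate could be left out. No paired analysis was possible because the labels give no replicate numbers and each tissue has 1 library. The inducible ratio of 5.96 moved to 6.53 as a mean of the cells' own CPM, 5.41 on a total without mitochondrial and ribosomal-protein genes, 6.58 in thinned cells and 8.63 with Dnaja1 counted as constitutive. The constitutive ratio of 1.54 moved in the same order to 1.76, 1.40, 1.74 and 1.59, and to 1.59 without the 1% of cells with the most member UMIs. The transitional-like inducible ratio of 3.05 moved to 2.74 at resolution 0.4. The cause of these shifts was not tested. None of the 52 recomputed values that answer a comparison reversed, and 42 of them stayed within their interval or within 1.5 times the count. The members past 2-fold were 6, but 5 on the total without mitochondrial and ribosomal-protein genes and 7 at a fold of 1.5. Of 90 recomputed log2 ratios of members, 24 moved beyond their interval, by at most 0.53 (Hsph1, thinned), and 0 changed sign. In the inducible sum, every hepatic class stayed above the thymic classes in all clusterings. With each library clustered alone, 7 hepatic classes remained, with precursor-like cells lowest at 2854 CPM. The cycling and transitional-like classes, lowest in the main clustering, were not among them. With each library clustered alone, only the type 17-like class of the 4 compared was named in both. At resolution 0.8 and with each library alone, a cluster with erythroid markers appeared. Low numbers limit the thymic Hspa1 pair, with 88 UMIs in 19 cells, and the hepatic cycling class, with 50 cells.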

Other observations

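Chaperone lists beyond the HSP70 and HSP90 systems of the cytosol held few genes that were 2-fold different between the tissues, where 12.1% of all genes were higher in the liver and 16.9% lower. Of 7 genes of the cytosolic chaperonin TRiC, which folds actin and tubulin, 0 were 2-fold different and the median log2 ratio was −0.41, with Cct4 at 163 against 293 CPM and Cct2 at 125 against 212 CPM. Of 9 mitochondrial chaperones and proteases beyond Hspd1 and Hspe1, 1 was at least 2-fold higher, the J protein Dnaja3 at 20.8 against 8.50 CPM, and 0 were lower. Of 18 chaperones and stress genes of the endoplasmic reticulum, 2 were at least 2-fold higher in the liver, Herpud1 at 132 against 52.8 CPM and Ddit3 at 152 against 74.0 CPM, and 1 was lower, Xbp1 at 61.1 against 152 CPM.

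In type 17-like cells the endoplasmic reticulum genes and the cytosolic members went opposite ways. Of 17 tested, 6 were at least 2-fold lower in the liver, where 2.16% of genes were, and 2 were higher, where 6.50% were. Sdf2l1, a cofactor of the reticulum's HSP70, stood at 156 against 442 CPM, and Creld2 at 48.3 against 130.1 CPM. The reticulum's HSP70 itself, Hspa5, stood at 1308 against 1229 CPM. In cycling cells the same list leaned the other way, with 14 of 18 genes above 1, a median log2 ratio of 0.37 (−0.17 over all genes) and a sum of 4590.4 against 3504 CPM, although 0 were 2-fold higher and 1 was lower, beside 7.19% and 16.5% of all genes. In type 17-like cells the transcription factors Atf4, at 332 against 153 CPM, and Ddit3, at 102 against 49.6 CPM, were higher in the liver. Hspa5 lies outside the rule for named genes and was chosen after its values were seen.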
